A study of Mus musculus with 4 samples.

Results

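The choroid plexus transporters and channels described here were 9 genes, Folr1, Kcnj13, Clic6, Slc4a5, Slc13a4, Aqp1, Car12, Kl and Tmem72, taken by symbol from the 32285 genes of the feature list. All 9 were matched, each to a single row. They were read in 4 Visium sections of fresh frozen mouse brain, a method that captures polyadenylated RNA on a grid of barcoded spots, each of which covers a small region that can hold several cells. All 4 sections carried the genotype Nf1+/-, a heterozygous loss of the tumor suppressor neurofibromin 1, and the labels gave no treatment, age or sex. No wild-type section was analysed here, so no value below compares genotypes, and it is not known from the labels if each section is a different mouse. A p-value below therefore weighed a difference between groups of spots only against its variation over these sections and counting error. That variation was estimated with a spread shared across genes, and it may be technical.

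The choroid plexus is a secretory epithelium that hangs in the brain ventricles and makes cerebrospinal fluid by moving ions, bicarbonate and water from blood to ventricle. Its cells are packed with pumps, exchangers, channels and carriers, and they secrete transthyretin, the product of Ttr, in large amounts. The 9 genes cover several of these tasks. Kcnj13 encodes the inward-rectifier potassium channel Kir7.1, Clic6 a chloride intracellular channel family protein, and Aqp1 the water channel aquaporin 1. Slc4a5 encodes the sodium bicarbonate cotransporter NBCe2, Slc13a4 a sodium-coupled sulfate transporter, and Car12 a membrane-bound carbonic anhydrase with its active site outside the cell. Folr1 encodes folate receptor alpha, Kl the FGF23 coreceptor klotho, and Tmem72 a transmembrane protein.

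Sections 1 to 4 held 1537, 2358, 2294 and 1431 spots with at least 500 UMIs (unique molecular identifiers, the counted molecules). The totals over all deposited spots ran from 19261710 to 37002379 UMIs per section, and the median spot held 8862.5 to 15296.5 UMIs. Nf1 itself was low, at 5.08 to 7.84 CPM (UMIs per 1000000 UMIs of the section). Ttr differed far more, at 12231 CPM in section 1, 7.0 in section 2, 72.9 in section 3 and 3737 in section 4. Spots with UMIs of at least 3 of 10 other choroid plexus epithelium markers, none of them among the 9 genes, numbered 104, 3, 7 and 42, and these are called choroid plexus-marker spots below. The 3 such spots of section 2 went against that name, since they held no Ttr UMI and no UMI of Kcne2, Prlr, Sostdc1 or F5. Each pair of sections shared 427 to 1989 spot barcodes, and no pair of sections was alike within sampling noise, the chi-square per degree of freedom over genes running from 13.7 to 51.8.

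The level of each gene was compared among the sections first, with exact Poisson 95% intervals that cover counting error only. All 9 genes were highest in section 1, whose level lay above that of section 4 beyond counting error for each of them. For 7 of them section 4 lay in turn above sections 2 and 3, the exceptions being Slc13a4 and Car12. Fewer cells of a type under the spots and less RNA per cell cannot be told apart in such sums. Sections 1 and 4 also differed over all genes, at a chi-square per degree of freedom of 23.2. The share of all genes separated in the same way was not counted, so the counts above do not set the 9 genes apart.

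**Figure D1:**
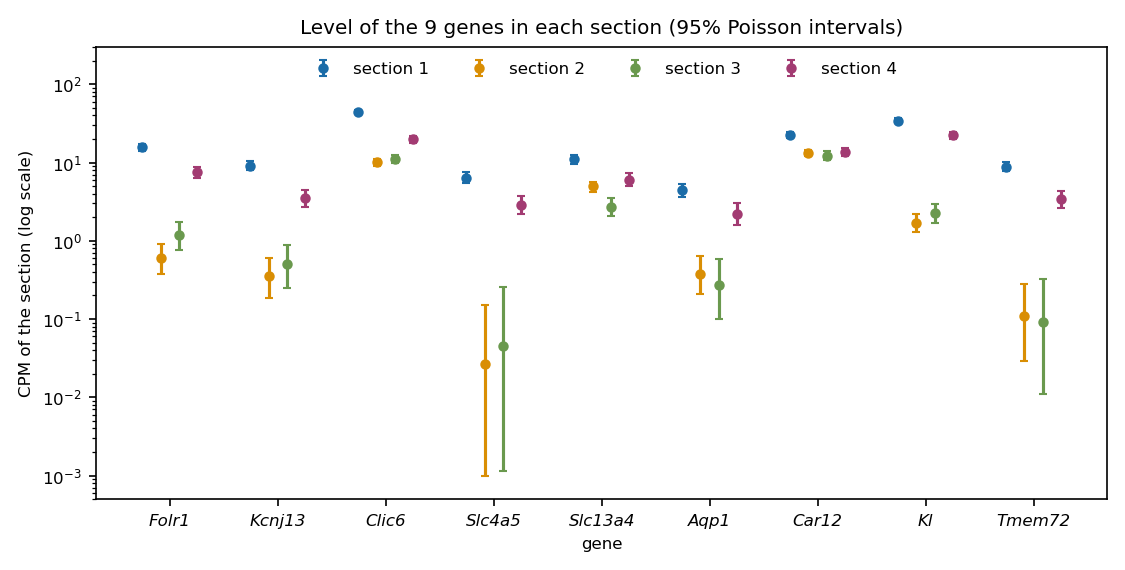
CPM of each gene (log scale) in the 4 sections, with 95% Poisson intervals as bars. Section 1 lies highest for all 9 genes, at 22.8 CPM for Car12 against 12.3 to 13.7 in the other sections, whereas Slc4a5 falls from 6.43 CPM in section 1 to 0.027 in section 2.

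Among the channels, Kcnj13 stood at 9.16 CPM in section 1, 0.351 in section 2, 0.50 in section 3 and 3.48 in section 4 (3.37 ± 4.12, SD, n = 4). Clic6 stood at 44.7, 10.1, 11.2 and 19.99 CPM in sections 1 to 4 (21.5 ± 16.1, SD, n = 4). Aqp1 stood at 4.43, 0.378, 0.273 and 2.23 CPM (1.83 ± 1.95, SD, n = 4). For these 3 genes sections 2 and 3 were not separated, while section 4 lay above both and section 1 above section 4. The range was narrower for Clic6, whose highest section was 4.44 times its lowest, than for Kcnj13 at 26.1 times and Aqp1 at 16.3 times.

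Of the transporters, Slc4a5 had 151 UMIs in section 1 and 56 in section 4 but a single UMI in each of sections 2 and 3. Its levels were 6.43, 0.027, 0.045 and 2.91 CPM in sections 1 to 4 (2.35 ± 3.04, SD, n = 4). Slc13a4 stood at 10.9, 4.95, 2.73 and 6.07 CPM (6.17 ± 3.47, SD, n = 4). The sulfate transporter thus kept a level in every section, and sections 4 and 2 were not separated, the ratio being 1.23 (95% interval 0.965 to 1.56), whereas section 2 lay above section 3. Car12, the carbonic anhydrase, varied least of the 9 genes, at 22.8, 13.2, 12.3 and 13.7 CPM (15.5 ± 4.89, SD, n = 4). Neither sections 4 and 2 nor sections 2 and 3 were separated for Car12, with ratios of 1.03 (95% interval 0.884 to 1.20) and 1.08 (95% interval 0.925 to 1.25).

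Folr1, the folate receptor, stood at 15.8, 0.595, 1.18 and 7.48 CPM in sections 1 to 4 (6.25 ± 7.06, SD, n = 4). Kl stood at 34.4, 1.70, 2.27 and 22.2 CPM (15.2 ± 16.0, SD, n = 4). Tmem72 stood at 8.86, 0.108, 0.091 and 3.37 CPM, with 4 UMIs in section 2 and 2 UMIs in section 3 (3.11 ± 4.13, SD, n = 4). For Folr1 section 3 also lay above section 2, whereas sections 2 and 3 were not separated for Kl or Tmem72.

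Promoter sequences are shown for 3 genes that differ in their spread over the sections, Kcnj13 and Slc4a5, which were sparse in sections 2 and 3, and Slc13a4, which was not. They are the 250 bases before the RefSeq transcription start (build GRCm38.p6), written 5′ to 3′ on the strand of the gene. The table of promoters held 7 of the 9 genes, not Folr1 or Clic6. Kcnj13 lies on chromosome 1, minus strand, with the window chr1:87394730-87394979. Slc4a5 lies on chromosome 6, plus strand, with the window chr6:83237125-83237374, which is inside the span of the gene and so precedes a start that is not the outermost. Slc13a4 lies on chromosome 6, minus strand, with the window chr6:35308127-35308376. Capitals mark the TATA box letters TATAAA or their reverse complement TTTATA.
Kcnj13: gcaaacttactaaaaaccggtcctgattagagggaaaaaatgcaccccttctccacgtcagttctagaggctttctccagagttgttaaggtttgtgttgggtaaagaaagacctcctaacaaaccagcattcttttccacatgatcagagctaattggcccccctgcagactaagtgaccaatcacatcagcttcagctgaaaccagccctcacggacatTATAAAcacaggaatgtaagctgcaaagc
Slc4a5: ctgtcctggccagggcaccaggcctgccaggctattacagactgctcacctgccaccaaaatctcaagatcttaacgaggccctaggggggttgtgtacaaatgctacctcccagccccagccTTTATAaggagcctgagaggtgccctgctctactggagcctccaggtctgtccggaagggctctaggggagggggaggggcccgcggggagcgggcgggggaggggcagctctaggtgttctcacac
Slc13a4: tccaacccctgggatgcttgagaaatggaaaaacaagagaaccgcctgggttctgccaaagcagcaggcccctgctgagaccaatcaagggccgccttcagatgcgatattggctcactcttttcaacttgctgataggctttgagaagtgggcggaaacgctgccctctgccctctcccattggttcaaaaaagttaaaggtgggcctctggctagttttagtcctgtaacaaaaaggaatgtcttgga
Of the 7 promoters, Kcnj13 and Slc4a5 each held the TATA box letters once, a match found in 12.4% of the 32851 mouse promoter windows of this length. Aqp1 and Tmem72, which were also sparse in sections 2 and 3, did not hold them. The bicoid-type homeodomain letters TAATCC were in none of the 7 and in 6.25% of all windows, and the forkhead letters GTAAACA were in none of the 7 and in 3.17% of all windows, both strands searched. The motifs do not overlap each other in these windows, and a match describes the letters only.

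To learn how tightly the UMIs of each gene were gathered, spots were ranked by their Ttr CPM. In section 1 the 77 spots with most Ttr, the top 5% of the section, held 4.92% of all UMIs. They held 69.3% of the Kcnj13 UMIs, 67.3% of Aqp1, 64.9% of Slc4a5, 64.9% of Tmem72, 62.7% of Folr1 and 62.4% of Kl. These shares lay beside 65.0% of the Ttr UMIs themselves. Slc13a4 at 47.9%, Clic6 at 42.0% and Car12 at 37.9% were less gathered, and their binomial 95% intervals lay wholly below those of the other 6 genes. Among 12904 genes with at least 50 UMIs in the section, whose median share was 4.33%, the 9 genes ranked between 8 for Kcnj13 and 110 for Car12.

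Section 4 showed the same split for Car12 but not for the other pair. Its 72 top spots held 1.96% of all UMIs, and they held 70.8% of the Tmem72 UMIs, 68.2% of Kl, 67.9% of Slc4a5, 65.1% of Aqp1, 64.2% of Kcnj13 and 58.3% of Folr1. Slc13a4 had 53.0%, with an interval that overlapped those of Folr1, Kcnj13, Slc4a5, Aqp1 and Tmem72. Clic6 had 47.8% and Car12 22.8%, and the Car12 interval lay below those of all the others. A few spots carried much of each gene. In section 1 the UMIs of Aqp1 reached 50% within 17 spots of the 68 that had any, those of Kl within 28 of 318, and those of Car12 only within 79 of 330. In section 4 the same counts were 11 of 32 for Aqp1, 16 of 165 for Kl and 61 of 192 for Car12.

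**Figure D2:**
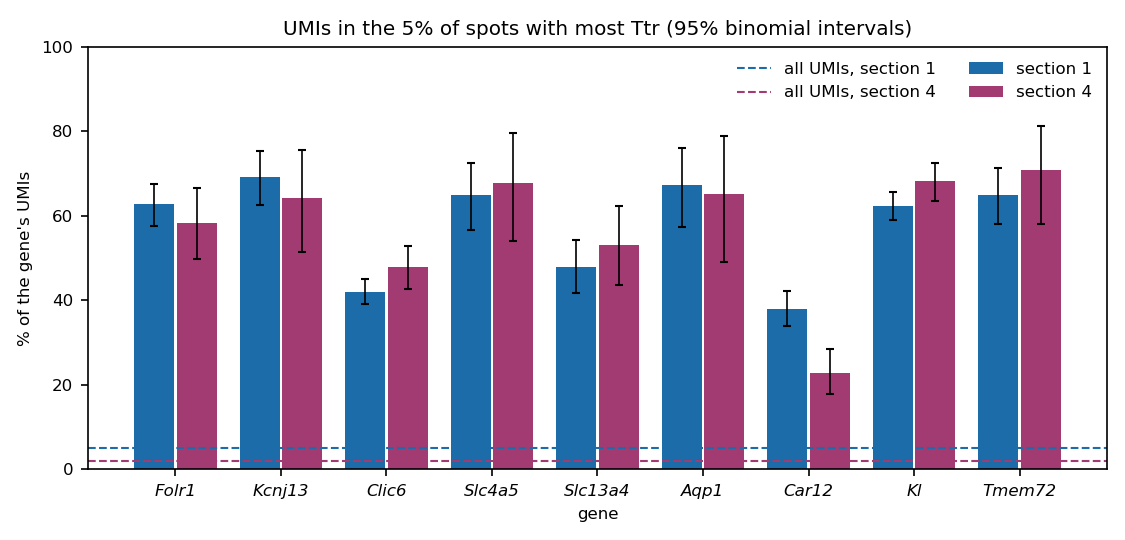
Percent of each gene's UMIs in the 5% of spots with most Ttr in sections 1 and 4, with 95% binomial intervals, and the share of all UMIs in the same spots as dashed lines (4.92% and 1.96%). Kcnj13, Slc4a5, Aqp1, Kl, Tmem72 and Folr1 stand at 58.3% to 70.8%, and Car12 is lowest in both sections.

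Sections 2 and 3 held few Ttr UMIs, 259 and 1605, so the same ranking rested on few counts there. Its top spots held 4.20% of all UMIs in section 2 and 3.39% in section 3. In section 2 the top spots by Ttr held 25 of 183 Slc13a4 UMIs (13.7%) and 20 of 373 Clic6 UMIs (5.36%), and in section 3 they held 12 of 26 Folr1 UMIs (46.2%), 12 of 50 Kl UMIs (24.0%) and 40 of 246 Clic6 UMIs (16.3%). Car12 was not gathered there, with 3.06% in section 2 and 3.32% in section 3.

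Detection of the genes in the same spots was then set against the number expected from the product of their shares. In section 1 all 36 pairs were found together more often than that, with a median of 2.66 times and a range of 1.47 (Clic6 with Car12) to 7.33 (Kcnj13 with Aqp1). Kcnj13 and Aqp1 shared 36 spots where 4.91 were expected, and Slc4a5 and Aqp1 shared 31 where 4.29 were expected. In section 4 all 34 pairs with an expectation of at least 1 spot were above it, with a median of 4.64 and a highest value of 11.4 for Kcnj13 with Tmem72. Clic6, with a median over its 8 pairs of 1.78 in section 1, and Car12, with 2.82 in section 4, had the lowest medians of their sections. Within the choroid plexus-marker spots the ratios came near 1, with medians of 1.32 over the 104 spots of section 1 and 1.21 over the 42 spots of section 4. The highest of these was Slc4a5 with Aqp1 in both sections, at 2.10 and 1.81. Spots of a section share their tissue and their depth, so these ratios are descriptions.

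All 9 genes were detected together in 18 spots of section 1 and 4 spots of section 4, and all of them were choroid plexus-marker spots. At least 5 of the genes were detected in 64 spots of section 1, of which 55 were choroid plexus-marker spots, and in 31 spots of section 4, of which 22 were. No spot of section 2 had more than 3 of the genes and no spot of section 3 more than 4. In section 2, 4 of the 13 pairs with an expectation of at least 1 spot exceeded it, and in section 3, 4 of 8 did. Clic6 and Car12 were above expectation in both, sharing 84 spots where 53.2 were expected in section 2 and 30 where 20.4 were expected in section 3. Thinned to 5000 UMIs per spot this pair stayed above expectation, at 1.85 and 1.33 times. Slc13a4 and Car12 shared 1 spot in section 3 where 4.88 were expected, whereas in section 2 the pair turned from 0.869 to 1.60 times when thinned.

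To test the 9 genes where choroid plexus is present, UMIs were summed per section over the choroid plexus-marker spots and over all other spots, and compared with edgeR's quasi-likelihood test with section as a block. All 9 genes were tested and all 9 were higher in choroid plexus-marker spots, where 8.28% of the 14096 genes tested were higher. Folr1, Kcnj13, Slc4a5, Aqp1 and Tmem72 passed the filter on low counts only with the help of the marker spots, where they are high. Their filtered calls are thus no support by themselves. Without the filter all 9 genes were higher, as were 1519 of 22107 genes. The median log2 fold change of the 9 genes was 5.36, beside -0.08 over all genes tested.

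**Figure D3:**
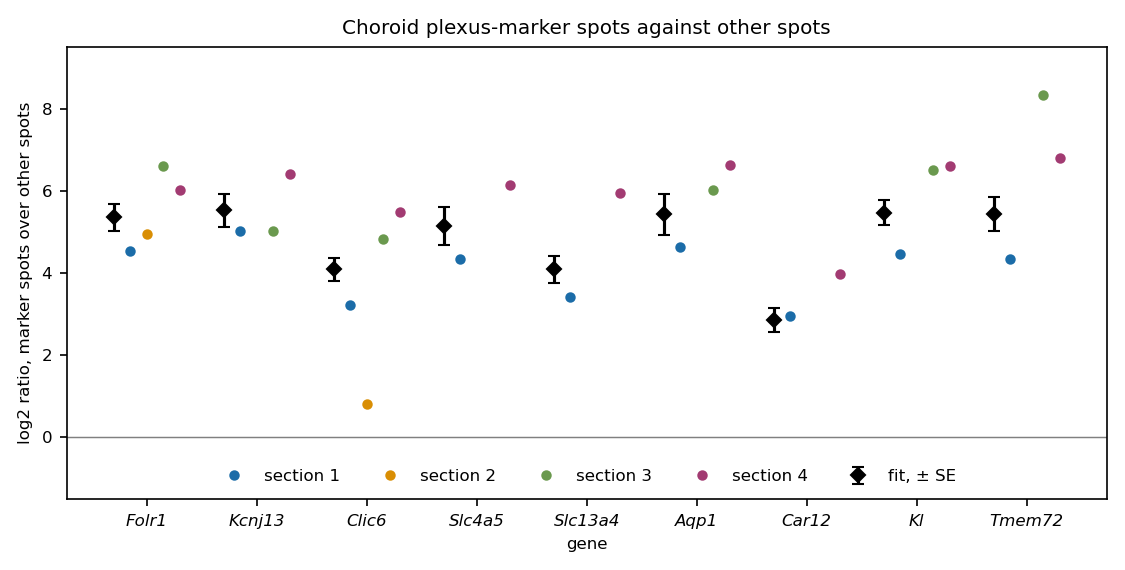
Log2 ratio of choroid plexus-marker spots over other spots for each gene. Black diamonds are the edgeR estimates with their SE and coloured points the ratios of single sections where both sums held a UMI. Estimates run from 2.85 for Car12 to 5.53 for Kcnj13, and section 4 lies above section 1 for every gene.

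Kcnj13 was at 87.0 CPM in the marker spots of section 1 against 2.68 in the other spots, and at 131 against 1.53 in section 4, with 1 UMI in the marker spots of section 3 and none in those of section 2. Its log2 fold change was 5.53 ± 0.39 (SE; edgeR adjusted p = 1.0e-41). Clic6 was at 256 against 27.2 CPM in section 1, 537 against 12.1 in section 4 and 294 against 10.3 in section 3, where 20 UMIs lay in the 7 marker spots (log2 fold change 4.09 ± 0.27, SE; edgeR adjusted p = 3.8e-47). Aqp1 was at 38.8 against 1.57 CPM in section 1 and 89.4 against 0.90 in section 4 (log2 fold change 5.43 ± 0.49, SE; edgeR adjusted p = 5.1e-26). All 3 channel genes were thus far apart between the groups of spots in both sections with many marker spots.

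Slc4a5 was at 52.7 against 2.58 CPM in section 1 and 99.7 against 1.42 in section 4 (log2 fold change 5.14 ± 0.46, SE; edgeR adjusted p = 8.5e-27). Slc13a4 was at 67.1 against 6.28 CPM in section 1 and 196 against 3.16 in section 4 (log2 fold change 4.09 ± 0.34, SE; edgeR adjusted p = 8.2e-31). Car12 was at 116 against 15.04 CPM in section 1 and 175 against 11.2 in section 4 (log2 fold change 2.85 ± 0.30, SE; edgeR adjusted p = 5.0e-20). None of these 3 genes had a UMI in the marker spots of sections 2 or 3. For Slc13a4 and Car12 the call was lost with DESeq2, at 2.40 (adjusted p = 0.42) and 1.11 (adjusted p = 0.82), and for Car12 it was also lost when the top 5% of spots by Ttr took the place of the marker spots, at 2.23 (adjusted p = 0.11).

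Folr1 was at 135 against 5.81 CPM in section 1 and 248 against 3.8 in section 4, and it had 6 UMIs in the 7 marker spots of section 3 (log2 fold change 5.36 ± 0.33, SE; edgeR adjusted p = 1.8e-57). Kl was at 290 against 13.2 CPM in section 1, 880 against 9.07 in section 4 and 162 against 1.78 in section 3 (log2 fold change 5.47 ± 0.31, SE; edgeR adjusted p = 1.3e-67). Tmem72 was at 72.6 against 3.55 CPM in section 1 and 141 against 1.27 in section 4 (log2 fold change 5.45 ± 0.41, SE; edgeR adjusted p = 3.6e-37). Folr1 and Clic6 were higher in the marker spots of 4 of 4 sections, Kcnj13, Aqp1, Kl and Tmem72 of 3 of 4, and Slc4a5, Slc13a4 and Car12 of 2 of 4. In section 2 the tally of Folr1 and of Clic6 rests on 1 UMI each, as does that of Kcnj13, Aqp1 and Tmem72 in section 3. With only the 2 sections that had at least 40 marker spots, sections 1 and 4, all 9 genes were again higher, with log2 fold changes from 3.47 for Car12 to 5.65 for Kcnj13. This cut was not planned. The planned cut of 50 left section 1 alone and so gave no test.

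Markers of other cell types moved with the same spots. All 6 ependymal markers were higher, with a summed level of 585 to 1854 CPM in the marker spots of the 4 sections against 22.8 to 45.2 CPM elsewhere, and 5 of 8 leptomeningeal fibroblast markers were higher. All 8 neuron markers were lower, and of the endothelial, oligodendrocyte, microglia and OPC (oligodendrocyte precursor cell) markers none of the 32 tested was called (1 at an unadjusted p under 0.05 in edgeR, and none called by DESeq2). Of 8 astrocyte markers 2 were higher and 1 was lower. Depth also differed, the median spot holding 5886 UMIs in the marker spots of section 4 against 12412 in its other spots, while in sections 1 to 3 the marker spots were the deeper ones, at 15862 against 14784, 19067 against 15278 and 9777 against 8846 UMIs. The part of these in the rise of the 9 genes was not tested in this comparison, and the ependymal markers are taken up again in spots low in Ttr.

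The proportions of the 9 genes to Ttr and to each other were set side by side in the marker spots of sections 1 and 4. Per 1000 Ttr UMIs, Kl had 2.78 UMIs in section 1 and 5.76 in section 4, a ratio of 2.07 (95% interval 1.78 to 2.41, counting error only). Slc13a4 had 0.64 and 1.28, a ratio of 2.00 (1.43 to 2.76), and Clic6 had 2.45 and 3.51, a ratio of 1.43 (1.19 to 1.72). For Folr1, Kcnj13, Slc4a5, Aqp1, Car12 and Tmem72 the interval of the ratio included 1, and the ratios lay between 1.03 and 1.57. As a share of the UMIs of the 9 genes together, Kl made up 26.0% in section 1 and 35.3% in section 4, while Kcnj13 made up 7.81% and 5.23% and Car12 10.4% and 7.02%. For these 3 genes the interval of the ratio of the shares left out 1, and for the other 6, Slc13a4 (1.3, 0.935 to 1.8) and Clic6 (0.937, 0.777 to 1.13) among them, it included 1. With 1 section on each side, these differences have no replicate check.

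Other genes of choroid plexus transport were followed in the same fit. Of a list of 28, 25 were tested, 16 were higher and 1 was lower, beside 8.28% and 5.77% of all genes. Without the filter on low counts 17 of the 28 were higher and 1 was lower, beside 1519 and 771 of 22107 genes. The 16 include Kcne2, a potassium channel subunit that is itself a marker used to pick the spots. Its rise (log2 fold change 6.07) was thus set by the picking. Among the other genes of the list the largest rises were in Slc16a8, a monocarboxylate transporter (log2 fold change 5.84 ± 0.53, SE; edgeR adjusted p = 8.3e-26), and Trpv4, an osmosensitive cation channel (4.66 ± 0.50, SE). Both passed the filter only with the help of the marker spots, so their filtered calls are no support by themselves. In the other spots of the sections Slc16a8 stood at 0.091 to 0.969 CPM and Trpv4 at 0.319 to 2.03 CPM. The glucose transporter family gene Slc2a12 (3.88), the anion exchanger gene Slc4a2 (3.36), the cation channel gene Trpm3 (3.12) and the carbonic anhydrase gene Car14 (2.65) also rose. Slc12a2, which encodes the NKCC1 cotransporter, rose by a log2 fold change of 1.5 and the proton-coupled folate transporter gene Slc46a1 by 1.27, with edgeR adjusted p = 1.1e-06 and 0.035. With the top 5% of spots by Ttr in place of the marker spots 6 genes of the list were higher. The calls of Slc12a2 and Slc46a1 were lost there, with DESeq2 and without section 4, and that of Slc46a1 also without section 1.

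Of the genes of sodium pump beta subunits, whose pump energizes the secretion of fluid, Atp1b2 had a log2 fold change of -0.13, not past the test, and Atp1b1 fell by 0.63 on the log2 scale (edgeR adjusted p = 0.0062). That call was lost with DESeq2 (adjusted p = 0.11), without the block (0.056), without section 2 (0.15) and without section 3 (0.075). It was also lost with at least 2 markers (0.37), at least 5 markers (0.71), the top 5% of spots by Ttr (0.16) and only sections with at least 40 marker spots (0.65). All 8 neuron markers were lower in the same spots, and Atp1b1 was also well measured outside them, at 1274 CPM in the marker spots of section 1 and 1390 CPM in its other spots. Car2, the cytosolic carbonic anhydrase gene, had 0.43 (adjusted p = 0.20) and Slc4a10, a bicarbonate transporter gene, 0.56 (adjusted p = 0.14). Fgfr1, a receptor partner of klotho, rose by 1.25 (adjusted p = 0.00033), whereas Klb, the gene of beta-klotho, did not reach the filter on low counts.

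The non-member gene whose spot-to-spot level was most like the sum of the 9 genes was Ttr, with a Pearson correlation of 0.54 across the 1537 spots of section 1 on the scale of log2(CPM + 10). It was followed by 2900040C04Rik (0.40), Calml4 (0.39), Enpp2 (0.39) and Ecrg4 (0.38). In section 4, ranked in the same way after the data were seen, Ttr led again at 0.63, followed by Ecrg4 (0.50), Igf2 (0.47), Lbp (0.44) and Calml4 (0.44). The spots share library and depth, so the coefficients describe these sections.

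Ttr was found in nearly every spot of sections 1 and 4, in 99.9% and 99.1% of them. Spots with Ttr under 100 CPM, the limit used here for tissue outside choroid plexus, therefore numbered 1 in section 1 and 14 in section 4, against 2314 in section 2 and 2005 in section 3. At the median depth 100 CPM corresponds to 0.886 to 1.53 Ttr UMIs. Levels outside choroid plexus come from sections 2 and 3 for this reason. For sections 1 and 4, the level of each gene was followed along bins of Ttr.

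**Figure D4:**
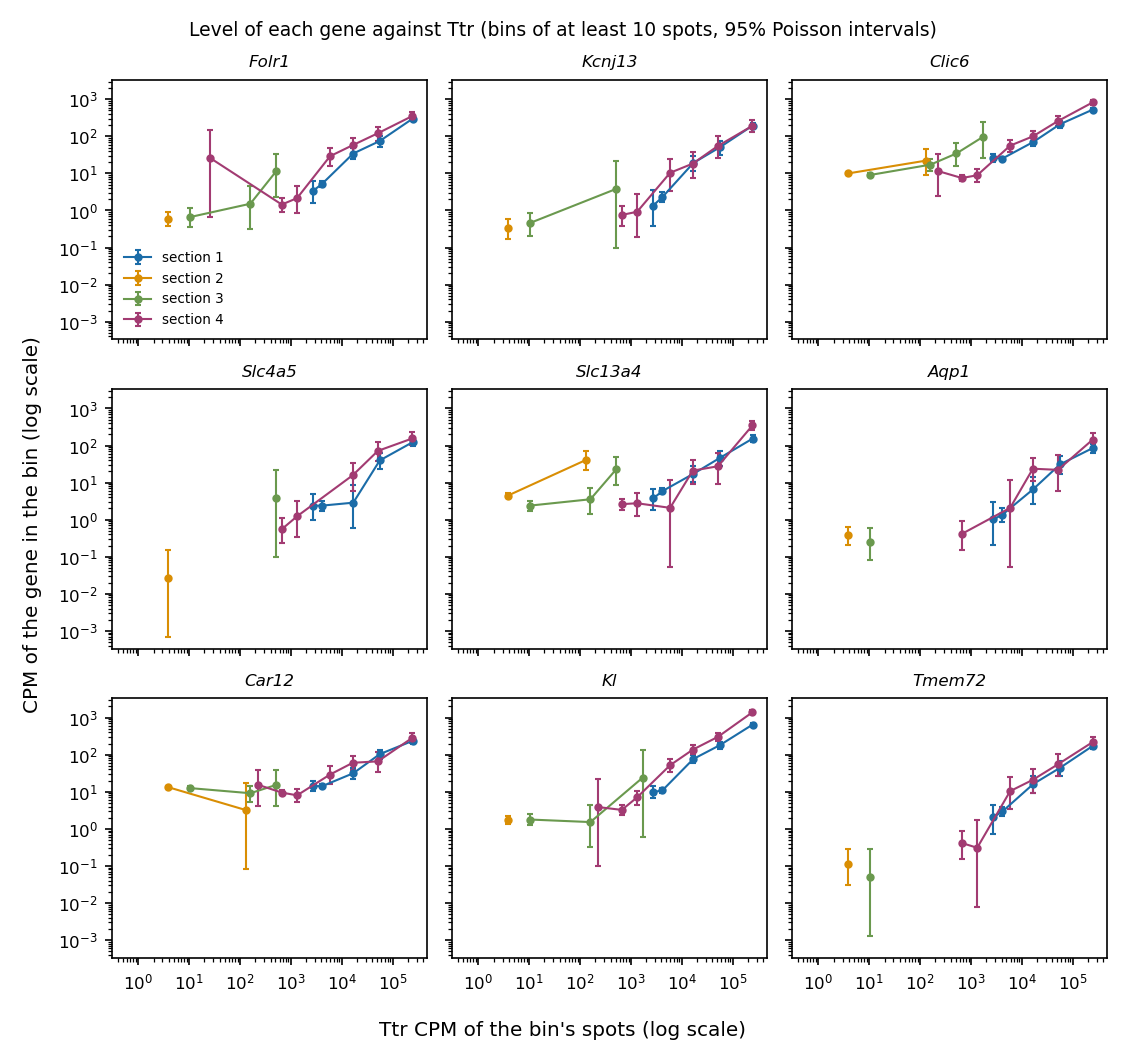
CPM of each gene against the Ttr CPM of the spots (both log scale), in bins of at least 10 spots that held UMIs of both genes, for the 4 sections, with 95% Poisson intervals. Within sections 1 and 4 Folr1, Kl and Tmem72 fall with Ttr, while Car12 and Clic6 level off. Slc13a4 levels off in section 4. From the section 1 bin of 3000 to 10000 Ttr CPM to that of 1000 to 3000, Slc13a4 goes from 5.88 to 3.73 CPM. Kl goes from 10.8 to 9.84 CPM there, and the intervals overlap for both genes. In the Ttr-low spots of section 2 Car12, Clic6 and Slc13a4 stand at 13.3, 10.0 and 4.48 CPM, and Kl and Folr1 still at 1.72 and 0.601 CPM.

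In section 1 the ratio of several genes to Ttr was alike at both ends of the range. Per 1000 Ttr UMIs, Folr1 had 1.21 in the spots with at least 100000 Ttr CPM and 1.23 in those between 1000 and 3000 CPM. Kl had 2.62 and 3.58, Tmem72 0.70 and 0.74, and Aqp1 0.34 and 0.37 in the same bins. Between these ends the ratio was not constant, since in the spots with 10000 to 30000 Ttr CPM Folr1 had 2.04 (Poisson 95% interval 1.43 to 2.82) and Kl 4.53 (3.59 to 5.64), both above the top bin. Car12 had 0.95 and 5.18, Clic6 2.12 and 9.63, and Slc13a4 0.62 and 1.36, or 1.42 (1.16 to 1.71) between 3000 and 10000 CPM. These 3 genes were thus richer relative to Ttr where Ttr was low. In section 4, between the top bin and the 891 spots with 300 to 1000 Ttr CPM, Car12 went from 1.16 to 14.3 and Clic6 from 3.34 to 11.3, while Kl went from 5.69 to 4.88.

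The spots without a UMI of any of the 10 choroid plexus markers gave the same split. In section 1 these were 835 spots with 46740 Ttr UMIs. At the ratio of each gene to Ttr in the marker spots of the section, 60.6 Folr1 UMIs would accompany them and 52 were found (Poisson 95% interval 38.8 to 68.2). For Kl 130 would accompany them and 126 were found, for Slc4a5 23.6 and 24, for Tmem72 32.5 and 30, and for Aqp1 17.4 and 15. Kcnj13 fell short, with 22 UMIs found (13.8 to 33.3) and 39.0 at the ratio.

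The other 3 genes exceeded it. Clic6 had 273 UMIs (242 to 307) where the ratio gives 114, Car12 164 (140 to 191) where it gives 51.9, and Slc13a4 63 (48.4 to 80.6) where it gives 30.04. In the 1049 such spots of section 4 the same 3 genes exceeded the ratio, with 122 against 49.9, 146 against 16.3 and 36 against 18.2 UMIs. Folr1 there had 33 UMIs (22.7 to 46.3) against 23.05, and its interval, like those of Kcnj13, Slc4a5, Aqp1, Kl and Tmem72, included the number at the ratio. The ratio has a counting error of its own, which these intervals leave out.

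In the Ttr-low spots of sections 2 and 3, 8 of the 9 genes had UMIs in both sections. The marker spots of these sections held too few Ttr UMIs, 0 and 751, for a ratio of their own. At the ratio pooled over sections 1 and 4, a choice made after the data were seen, the 141 and 203 Ttr UMIs of these spots would be accompanied by less than 1 UMI of each gene. The spots were picked for low Ttr, so a small number at the ratio was set by the picking. UMIs found beyond it are therefore no test of where they came from. The pooled ratio can be too low for section 3. Per 1000 Ttr UMIs, its 7 marker spots had 26.6 Clic6 UMIs (Poisson 95% interval 16.3 to 41.1), 14.6 of Kl (7.31 to 26.2) and 7.99 of Folr1 (2.93 to 17.4). These intervals lay above the ratios of sections 1 and 4. Kcnj13, Aqp1 and Tmem72 had 1.33 each, on 1 UMI, and Slc4a5, Slc13a4 and Car12 had 0.

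Car12 was at 13.3 CPM in section 2 (Poisson 95% interval 12.2 to 14.6, 488 UMIs) and at 12.6 CPM in section 3 (11.1 to 14.2, 247 UMIs), in 17.6% and 10.6% of the spots. Clic6 was at 10.0 CPM (9.0 to 11.1, 366 UMIs) and 9.06 CPM (7.78 to 10.5, 178 UMIs). Slc13a4 was at 4.48 CPM (3.82 to 5.22, 164 UMIs) and 2.39 CPM (1.76 to 3.18, 47 UMIs). The intervals of the sections overlapped for Car12 and Clic6 and not for Slc13a4. Ttr-low spots held 98.9% and 89.3% of all UMIs of sections 2 and 3. They held 99.6% and 91.1% of the Car12 UMIs, close to those shares. Of the Clic6 UMIs they held 98.1% in section 2, also close, and 72.4% in section 3, below the share. Of the Slc13a4 UMIs they held 89.6% and 78.3%, below the shares of both sections.

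Kl had 63 and 35 UMIs, or 1.72 and 1.78 CPM, where the pooled ratio gives 0.472 and 0.679 UMIs, low by the picking of the spots. Folr1 had 22 and 13 UMIs (0.601 and 0.662 CPM), Aqp1 14 and 5 (0.383 and 0.254 CPM) and Kcnj13 12 and 9 (0.328 and 0.458 CPM). Tmem72 had 4 and 1 UMIs. Slc4a5 had 1 UMI in section 2 and 0 in section 3, which allows a level of up to 0.153 CPM at 3 UMIs. Outside choroid plexus the bicarbonate cotransporter gene was therefore at the limit of detection, and Tmem72 close to it.

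Where in the tissue these UMIs lay was tested with 8 lists of cell type markers. For each list, the 10% of Ttr-low spots with the highest marker score (231 in section 2 and 200 in section 3) were compared with the other Ttr-low spots by edgeR, with section as a block. Over the 8 lists, 15 combinations of a gene and a list were called. Among the lists with a higher call, 3.64% (microglia) to 8.62% (leptomeningeal fibroblast) of all genes tested were higher. Of all genes tested, 4.57% were lower with the astrocyte list and 15.7% with the neuron list. With the oligodendrocyte and OPC lists, where none of the 9 genes was called, 13.4% and 3.66% of all genes were. The fit rested on 2 sections and so on 1 residual degree of freedom per gene, with the spread shared across genes. Between 4 and 6 of the 9 genes were tested per list, because the others did not pass the filter on low counts. Kcnj13, Aqp1 and Folr1 passed it only with lists whose picked spots held them at a higher CPM in both sections. The filter thus favoured a rise of these genes, and their filtered calls are no support by themselves. They are read with their UMIs and without the filter.

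**Figure D5:**
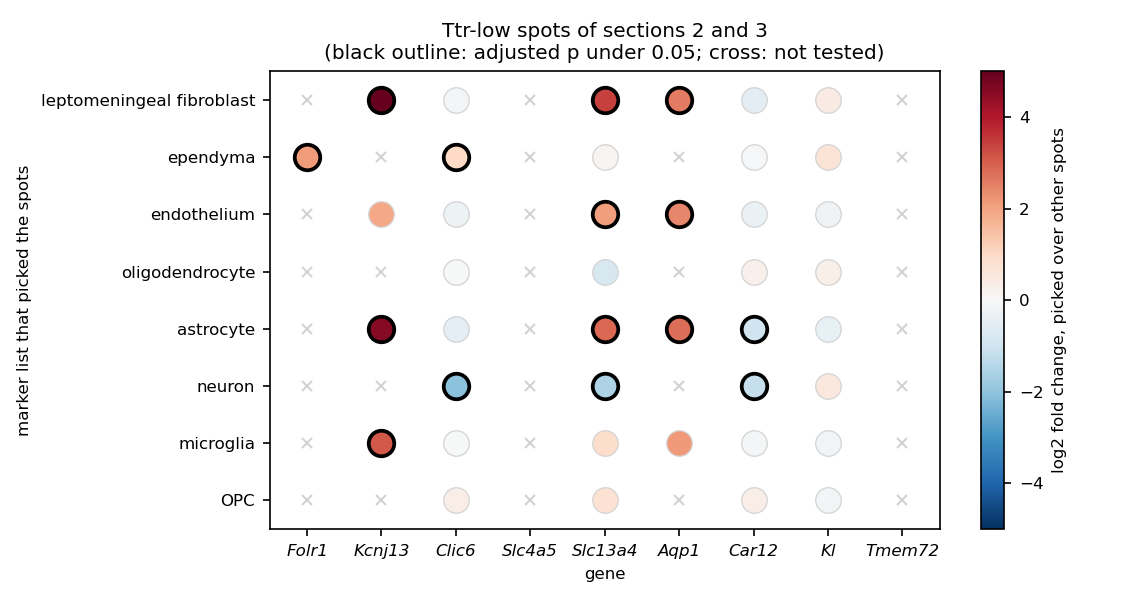
Log2 fold change of each gene (colour) in Ttr-low spots picked by each marker list against the other Ttr-low spots of sections 2 and 3. Black outlines mark adjusted p under 0.05 and crosses genes not tested. Slc13a4 is higher with the leptomeningeal fibroblast (3.42), astrocyte (2.87) and endothelium (2.09) lists, and Clic6, Slc13a4 and Car12 are lower with the neuron list.

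The sulfate transporter gene Slc13a4 followed leptomeningeal fibroblast markers, the collagen and matrix genes of the pia and arachnoid. It was at 26.1 CPM in the picked spots of section 2 against 2.34 in the others, and at 12.8 against 1.44 in section 3, with 86 of 164 and 21 of 47 UMIs in the picked spots. Its log2 fold change was 3.42 ± 0.25 (SE; edgeR adjusted p = 5.9e-41), where 8.62% of the 14354 genes tested were higher. Kcnj13 was at 3.04 against 0.06 CPM in section 2 (10 and 2 UMIs) and 3.67 against 0.17 in section 3 (6 and 3 UMIs). Its log2 fold change of 4.98 ± 0.71 (SE; edgeR adjusted p = 2.0e-10) was 4.94 without the filter (adjusted p = 1.3e-05). Aqp1, with 5 and 2 UMIs in the picked spots, had 2.59 (adjusted p = 0.016), and was not called without the filter.

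The same genes rose with the astrocyte list, at 2.87 ± 0.27 (SE) for Slc13a4 (edgeR adjusted p = 1.3e-23), 4.55 ± 0.76 for Kcnj13 and 2.79 ± 0.85 for Aqp1, where 8.61% of genes were higher. Spots picked by the astrocyte list made up 36.4% of those picked by the fibroblast list in section 2 and 25.0% in section 3. Slc13a4 and Aqp1 also rose with the endothelium list (2.09 and 2.45, where 6.12% were higher), whose spots made up 27.3% and 21.5% of the fibroblast-picked spots. Kcnj13 rose with the microglia list (3.12, 10 of its 21 UMIs, where 3.64% were higher). Without the filter the Kcnj13 calls held, and those of Aqp1 were lost, at adjusted p = 0.12 with the astrocyte list and 0.29 with the endothelium list. DESeq2 called Kcnj13 with neither the astrocyte nor the microglia list. With the microglia list Kcnj13 was called in 5 of 9 alternatives. Without the block the call of Slc13a4 with the endothelium list (adjusted p = 0.067) and that of Kcnj13 with the microglia list (0.18) were lost. The part of the shared spots in these calls was not tested. The summed level of the 10 choroid plexus markers in fibroblast-picked spots was 13.4 and 12.8 CPM against 9.16 and 10.7 CPM in the others.

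Clic6 rose with ependymal markers, the genes of the ciliated lining of the ventricles, a call kept in 6 of 9 alternatives. Folr1 was called there only with the filter. Clic6 was at 14.9 against 9.47 CPM in section 2 and 25.0 against 7.68 in section 3 (log2 fold change 1.01 ± 0.20, SE; edgeR adjusted p = 7.8e-06), where 6.93% of 14445 genes were higher. Folr1 was at 1.69 against 0.48 CPM in section 2 and 3.21 against 0.44 in section 3, with 6 and 5 UMIs in the picked spots (2.15 ± 0.63, SE; edgeR adjusted p = 0.0073). The 10 choroid plexus markers were also higher there, with a summed level of 26.7 and 25.0 CPM against 7.69 and 9.67, and their part in these rises was not tested. With the top 20% of spots in place of the top 10% neither gene was called, where 546 of 14469 genes were higher. With DESeq2 neither gene passed, at adjusted p = 0.061 for Clic6 and 0.39 for Folr1, and without the filter Folr1 had adjusted p = 0.071. Kl, Slc13a4 and Car12 had 0.69, 0.11 and -0.07 with this list, none of them called.

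The spots picked by the neuron list were poor in 3 of the genes. Of the 8 neuron markers, 7 were higher in the picked spots of section 2 and 6 in those of section 3. A list of striatal neuron markers, chosen after the data were seen, picked 0 of the same spots in either section. The falls thus describe these spots and not all tissue rich in neurons. Clic6 was at 2.78 against 11.2 CPM in section 2 and 2.56 against 10.3 in section 3, and fell by 2.06 on the log2 scale (SE 0.28; edgeR adjusted p = 2.0e-12). Car12 was at 5.76 against 14.5 CPM and 7.35 against 13.6 CPM, and fell by 1.20 (SE 0.21; edgeR adjusted p = 7.8e-08). Slc13a4, with 10 and 2 UMIs in the picked spots, fell by 1.52 (SE 0.40; adjusted p = 0.00073). Lower calls were frequent with this list, at 15.7% of 14309 genes. The picked spots were also deeper, with medians of 20499 and 14158 UMIs against 14895 and 8446. Car12 also fell with the astrocyte list, by 1.00 (adjusted p = 0.0011), where 4.57% of genes were lower. DESeq2 did not call this fall (adjusted p = 0.43) or that of Slc13a4 with the neuron list (adjusted p = 0.22).

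None of the 4 genes tested with the oligodendrocyte list and none of the 4 tested with the OPC list was called, where 13.4% and 3.66% of genes were called in either direction. At an unadjusted p under 0.05 in edgeR there were 0 and 1, and DESeq2 called none, leaving 2 and 4 of them without an adjusted p. Slc13a4 was called higher with the OPC list in 1 of 9 alternatives, Ttr under 300 CPM, where 316 of 14530 genes were higher. With the microglia list Slc13a4 was not called in the main fit but was in 5 of 9 alternatives. The spots picked by the oligodendrocyte list were shallow, with medians of 5434 and 3795.5 UMIs against 16140 and 9660. They held 4 and 1 UMIs of Slc13a4 and 4 and 1 of Kl in sections 2 and 3, too few to show absence. Kl was called with none of the 8 lists, its log2 fold changes running from -0.40 to 0.69. In the spots without any choroid plexus marker, over all 4 sections, Slc13a4 with the fibroblast list (3.38, adjusted p = 5.0e-11), Kcnj13 with the fibroblast list (2.20, adjusted p = 0.032), Folr1 with the ependyma list (1.62, adjusted p = 0.016) and the fall of Clic6 and Car12 with the neuron list (-1.58 and -1.06) were called again. Clic6 with the ependyma list was not, at 0.41. Of all genes there, 933 of 13450 (fibroblast) and 417 of 13414 (ependyma) were higher and 2238 of 13387 (neuron) lower. Folr1 with the oligodendrocyte list (1.82, edgeR adjusted p = 0.019) and Slc13a4 with the microglia list (0.87, adjusted p = 0.029) were also called. With these lists 1805 of 13200 and 803 of 13404 genes were higher. In sections 1 and 4 the spots without markers were not low in Ttr, at medians of 3712 and 774 CPM. The oligodendrocyte-picked ones were shallow in section 4, with a median of 4052 UMIs against 13148. The part of Ttr and of depth in these calls was not tested.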

How the data were processed

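Per the labels and the file headers, the authors ran Space Ranger 1.3.1 on the mouse genome build mm10 and deposited, for each of the 4 sections, UMI counts per gene and spot; other parameters were not given in the sources used here. Spots with fewer than 500 UMIs were left out (1 to 26 per section), no doublet caller was run, and levels are CPM with exact Poisson or binomial 95% intervals that cover counting error only. Counts summed per section and spot group were tested with edgeR 4.0.16 (R 4.3.3; TMM, filterByExpr, quasi-likelihood F test with a block for section, p-values adjusted by Benjamini-Hochberg across every gene tested, threshold 0.05). The fit was also run on simulated counts with known changes, drawn with the same spread for every gene and no difference between sections. That simulation does not measure the error of the test in these data. The sums were paired by section, being taken from the same piece of tissue, and in the test of marker spots the paired deviations correlated at 0.0855 to 0.139. The lists of cell type markers held 6 to 10 genes and the transport list 28. The 9 genes, the lists and the tests were chosen with earlier results of these data known. Genes named in the text are the 9 genes, Ttr, the choroid plexus markers, the transport list and the 5 genes most like the sum of the 9. Alternatives were DESeq2 1.42.0, scaling to total UMIs, no filter, no block, other spot groups, thinning to 5000 UMIs and leaving out each section. The score of a marker list was its observed minus expected UMIs over the square root of the expected. Promoters are from RefSeq (GRCm38.p6, the same assembly as mm10). Some items withheld from this text are not reported here.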

Additional observations from a re-analysis of the deposited data

Results flagged for a closer look

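Of 18 values of the 9 genes tested for a section that stands apart, 1 was marked. Car12 stood at 22.8 CPM in section 1, far from the 12.3 to 13.7 CPM of the other 3 sections, with a gap to its neighbour of 0.872 of the whole range. Chance marks about 1 in 20 such groups.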

How the results depend on the processing

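None of the calls of the 9 genes changed direction, while some values that were not called did, such as Slc13a4 with the ependyma list in 2 of 9 alternatives and Car12 in 3 of 9, and the members higher in choroid plexus-marker spots numbered 7 to 9, also when a section was left out, because Aqp1 and Slc4a5 then failed the filter without section 1 and Slc4a5 without section 4. The count of all genes higher there, 1167, was 439 with the top 5% of spots by Ttr and 760 to 1095 when a section was left out. The count lower, 813, was 309 with DESeq2, 498 with at least 2 markers, 56 with the top 5% by Ttr, 308 with only sections of at least 40 marker spots and 246 to 1114 when a section was left out. Without the replicate block all 9 genes stayed higher (1408 and 1007 genes higher and lower), but the 15 member calls in Ttr-low spots became 7. They became 6 with DESeq2, which left several of them without an adjusted p. Calls over all genes fell in both settings too. With the leptomeningeal fibroblast list 1238 higher calls became 261 without the block and 318 with DESeq2. With the neuron list 2246 lower calls became 780 and 582. Leaving out a section there leaves 1 section, so no test was made, and the single section with at least 50 marker spots gave values without a test. Thinned to 5000 UMIs, Slc13a4 with Car12 in section 2 turned from 0.869 to 1.60 times expectation, on few shared spots. The median co-detection ratio after thinning was 5.16 in section 1 and 6.87 in section 4, and Car12 was found in 6.94% of spots on average (15.6% unthinned). The top 10% by Ttr held a median of 100% in section 2, where the cut falls at 0 Ttr UMIs. Folr1 outside choroid plexus averaged 0.731 CPM with Ttr under 1000 CPM and 0.552 CPM in spots without markers (0.631 in the report's spots), and Slc4a5 0.0364 CPM with Ttr under 1000 CPM. The cause of these shifts was not tested. At these depths Slc4a5 and Tmem72 outside choroid plexus, with 0 to 4 UMIs per section, could not be placed in any tissue, and levels near 1 UMI per gene set no order.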
